A study of Drosophila melanogaster and Drosophila biarmipes with 20 samples.

Results

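The chemoreceptor genes of Drosophila melanogaster were followed through wing development by the open chromatin listed in and around them. All protein-coding genes whose symbol is Gr, Or or Ir followed by a number were taken from the RefSeq annotation of Release 6, the dm6 assembly, which gave 179 of 13946 genes, namely 60 Gr, 59 Or and 60 Ir genes. The lists of open regions of the 10 D. melanogaster libraries merged into 98646 regions, and 857 of these overlapped a chemoreceptor gene or lay within 10 kb of it with no closer gene. Of the 857 regions, 427 overlapped a gene span and 14 counted for more than 1 receptor gene.

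The assay was ATAC-seq, where a transposase inserts sequencing adapters into accessible DNA. The tissue was male wings of D. melanogaster from stocks kept at 20 degrees, and pupal development, counted in percent, was sampled at 0%, 48%, 60%, 69% and 78%, with 2 libraries per stage labelled as biological replicates. Each 0% library came from 24 pooled wing discs, each 48% library from 14 to 17 wings of at least 11 individuals (the extraction notes give this stage as 47%), and each later library from 24 wings. The series follows the expression of the pigment gene yellow in 2 species, and the lists of D. biarmipes were not used here. No transgene or treatment is named, and the labels give no strain.

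Gr genes encode gustatory receptors for sugars, bitter compounds and carbon dioxide, and Or genes encode odorant receptors, which work together with the co-receptor Orco. Ir genes encode ionotropic receptors, relatives of ionotropic glutamate receptors that sense acids, amines, humidity or temperature, often together with broadly expressed co-receptors. Most of these receptors are known from the sensory neurons of the antenna, palps and proboscis, and the adult wing margin carries taste bristles whose neurons use some of them. An ATAC-seq library of a whole wing mixes all its cells, so a region open in few cells and a region weakly open in many cannot be told apart.

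The lists hold positions alone, with a score that is 1 throughout, so a region was either listed in a library or not. The libraries held 56282342 to 119278540 tags and 41485 to 80705 listed regions, and the threshold stood at 1.34 to 1.49 times the expected tags per window. Stage and list length moved together, with 70786 ± 14028 entries at 0%, 46454 ± 7027 at 48%, 59658 ± 16436 at 60%, 73923 ± 1626 at 69% and 74641 ± 8572 at 78% (mean ± SD, n = 2 libraries each). The fragment length in the file headers was 138 to 208 bp in replicate 1 of 0%, both libraries of 48% and replicate 2 of 60%, and 50 to 58 bp in the other 6. The wing genes vg, nub, ap and sd were listed in all 10 libraries. Of the neuronal genes, elav, brp and Syt1 were listed in all 10 and nSyb in 8, with none at 0%, and of 4 sensory bristle genes Poxn and sens were listed in all 10, and the proneural genes ac and sc in the 0% libraries alone.

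Fewer chemoreceptor genes than other genes of similar length had a listed region, at every stage and in every library. The share of receptor genes with a region in or near them was 73.2 ± 2.37% at 0%, 58.4 ± 8.30% at 48%, 69.3 ± 7.11% at 60%, 75.1 ± 3.56% at 69% and 72.6 ± 6.32% at 78% (mean ± SD, n = 2 libraries each). Among the other protein-coding genes, standardised to the same span lengths, the share was 85.9 ± 3.10%, 81.2 ± 1.92%, 86.3 ± 2.00%, 88.1 ± 0.0983% and 87.8 ± 1.77% at the same stages. The difference lay between -27.3 and -10.5 percentage points in the single libraries, below 0 in 10 of 10, with the widest gap in replicate 1 of 48%. Replicate 2 of 60%, with a long fragment length as at 48%, had a share of 64.2%. That equals replicate 2 of 48%, while replicate 1 of 60% had 74.3%. The part of fragment length was not tested. Gene shares over a chosen family carry no p-value here, and the SD covers the spread between libraries.

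The Ir genes had the lowest share of the families. It was 65.0 ± 4.71%, 53.3 ± 4.71%, 60.0 ± 4.71%, 65.0 ± 7.07% and 67.5 ± 8.25% from 0% to 78%, with differences of -31.8 to -22.9 points from genes of similar length. The Gr share was 72.5 ± 1.18%, 62.5 ± 8.25%, 74.2 ± 5.89%, 76.7 ± 0% and 76.7 ± 2.36% over the same stages. It was lowest at 48%, as was the Ir share. The Or share was 82.2 ± 1.20%, 59.3 ± 12.0%, 73.7 ± 10.8%, 83.9 ± 3.60% and 73.7 ± 8.39%. Set against genes of similar length, the Or genes differed by -2.44 ± 2.23 points at 0% and -3.13 ± 3.56 points at 69%, close to the SD between libraries, and by -19.9 ± 9.92 points at 48%.

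**Figure D1:**
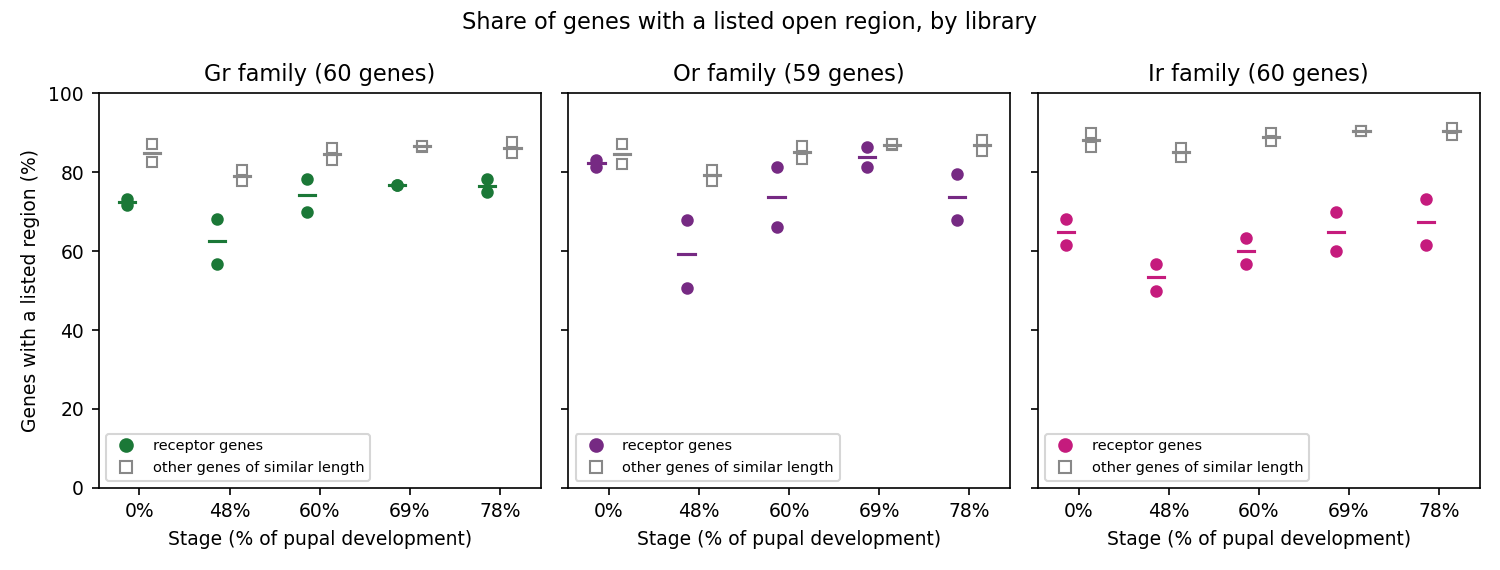
Share of Gr, Or and Ir genes with a listed region (filled circles) beside other protein-coding genes of similar length (open squares), by stage in percent of pupal development; each point is a library and each bar the mean of 2. The receptor genes lie below the other genes in every library, and the Or genes differ by -2.44 points on average at 0%.

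Listing within the gene itself was rarer still. A region overlapped the span of 61.5 ± 3.95% of receptor genes at 0%, 37.2 ± 9.09% at 48%, 54.7 ± 10.3% at 60%, 60.6 ± 1.98% at 69% and 57.8 ± 10.7% at 78%, against 80.2%, 72.2%, 78.6%, 82.1% and 81.6% of genes of similar length. Of the 179 receptor genes, 31 (17.3%) were listed within the span in all 10 libraries, against 61.9% of genes of similar length. In no library was the span of 35 receptor genes listed (19.6%), against 7.04% of genes of similar length. The remaining 113 were listed in 1 to 9 libraries.

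The entries at receptor genes were also narrower. Each library had 84 to 335 entries within receptor spans, 0.202% to 0.460% of its list, with a median width of 127 to 206 bp, against 169 to 339 bp at other genes. Each list is ordered nearly by width. Within the first 25% of its entries lay 3.91% to 11.9% of the receptor entries and 26.6% to 27.7% of those at other genes. Of the 857 receptor regions 10.7% were listed in all 10 libraries and 34.9% in a single library, against 16.7% and 29.8% of all merged regions.

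The X chromosome held most of the members that were never listed. On it lie 25 receptor genes (6 Gr, 8 Or and 11 Ir), and 24 of them were listed within the span in no library. The share listed within the span was 0% to 4% per library, against 58.2% to 68.5% of X genes of similar length. The 24 include Ir8a, a co-receptor for acid-sensing Irs, the trehalose receptor gene Gr5a, and the row of Ir7b to Ir7g, which lay between 7864948 and 7886976 with 0 regions at any of its 6 genes. A region within 10 kb was counted for 5 of the 24, and 19 X members had none at all.

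Or1a was the exception on X. Its span (X from 315123 to 316566), inside the larger gene CG3777, was covered over 777 and 689 bp at 0%, 503 and 759 bp at 48%, 248 and 244 bp at 60%, 167 and 211 bp at 69%, and 0 bp in both libraries at 78%. No part of the span was thus listed at 78%. At 48%, replicate 1 lay below both 0% libraries and replicate 2 lay between them. Other X genes, matched to the lengths of the X receptor genes, were also covered less at later stages. Their mean covered share was 10.7 ± 0.327% at 0%, 10.6 ± 0.838% at 48%, 9.52 ± 0.558% at 60%, 7.76 ± 0.314% at 69% and 5.74 ± 0.303% at 78%. Or1a is a larval odorant receptor gene. Its region also lies in CG3777, and the lists do not assign it to either gene.

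Outside X the gap was smaller but remained. On the arms of chromosomes 2 and 3, with 154 receptor genes, a region lay in or near 78.9% of receptor genes on average and 88.9% of genes of similar length on these arms, and within the span of 62.7% and 81.8%. The receptor genes were lower in 10 of 10 libraries by either measure. For Or genes alone, regions in or near them were rarer in 6 of 10 libraries, with means of 82.4% and 87.9%. X genes of similar length were listed within the span less often than those on arms (63.3% and 81.8% on average). The wings were male, with a single X, and the part of X dose in these values was not tested.

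**Figure D2:**
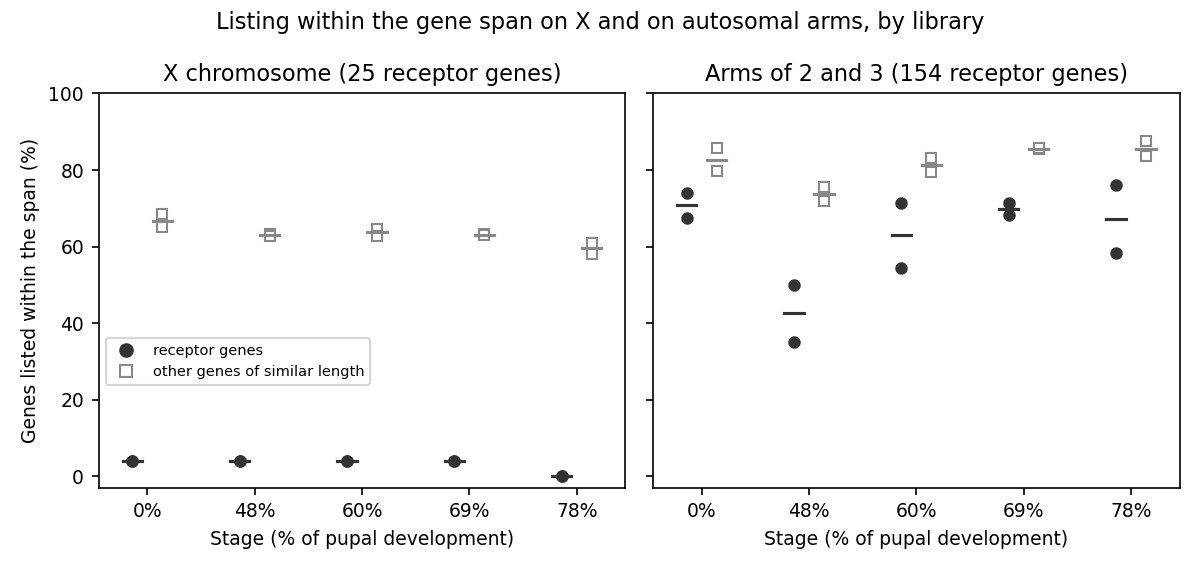
Share of receptor genes listed within the gene span (filled circles) beside other genes of similar length (open squares) on X and on the arms of chromosomes 2 and 3; each point is a library. The X receptor genes lie at 0% to 4%, against 58.2% to 68.5% of the other X genes, while the receptor genes on the arms lie at 35.1% to 76.0%.

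The wing disc differed from the pupal wing in how much of the receptor genes was covered. On the arms of 2 and 3, 21.0 ± 6.21% of the average receptor span was covered at 0%, 5.71 ± 1.77% at 48%, 11.8 ± 3.21% at 60%, 12.9 ± 0.705% at 69% and 11.8 ± 2.91% at 78%. Genes of similar length on these arms had 20.7 ± 3.40%, 17.5 ± 0.372%, 22.6 ± 0.637%, 24.2 ± 1.49% and 24.2 ± 2.34%. The receptor genes thus differed from the other genes by 0.285 ± 2.81 points at 0%, within the SD between libraries and with the families on either side, and differed from them by -12.4 to -10.8 points later.

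Gr spans had the largest covered share in the disc. On the arms 28.2 ± 8.47% of the average Gr span was covered at 0%, above the 21.4 ± 3.55% of genes of similar length, with 8.53 ± 3.23%, 16.6 ± 3.42%, 17.7 ± 0.470% and 16.8 ± 2.94% at the later stages. The Or spans had 21.6 ± 6.47%, 3.61 ± 1.64%, 9.45 ± 4.11%, 12.9 ± 2.47% and 10.6 ± 2.74% from 0% to 78%. The Ir spans had 12.4 ± 3.45%, 4.79 ± 0.303%, 9.07 ± 2.06%, 7.63 ± 0.164% and 7.51 ± 3.06%. At 0% the difference from genes of similar length was 6.81 ± 4.92 points for Gr, 0.319 ± 2.92 points for Or and -6.94 ± 0.378 points for Ir genes. Every family was thus lowest at 48%, and the disc mean exceeded the pupal means in all 3 families. The disc libraries differed, with 22.2% and 34.2% for Gr, 17.0% and 26.2% for Or, and 9.94% and 14.8% for Ir genes. The higher values are those of replicate 2, which had the most tags and the longest list. Both disc libraries lay above every pupal library for Gr and Or genes, but not for Ir genes. Both 48% libraries and replicate 2 of 60% had a long fragment length and the shortest lists. In that 60% library 14.2% of the Gr, 6.54% of the Or and 7.62% of the Ir span was covered. In replicate 1 of 60% the values were 19.0%, 12.4% and 10.5%. The part of fragment length and list length in the 48% low was not tested.

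**Figure D3:**
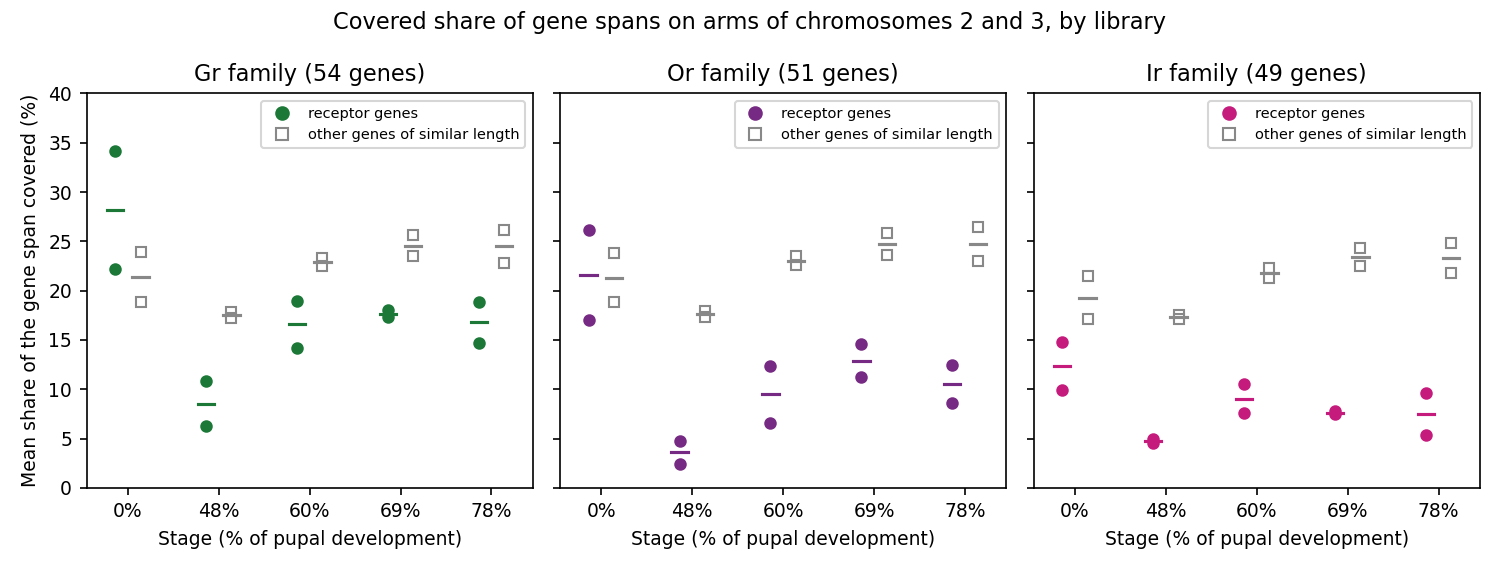
Mean share of the gene span covered by listed regions, for Gr, Or and Ir genes on the arms of chromosomes 2 and 3 (filled circles) and other genes of similar length there (open squares), by library. The Gr genes reach 28.2% on average at 0% and 8.53% at 48%, while the other genes of the 3 panels stay between 17.3% and 24.8% on average.

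Gene by gene, the span was covered over a shorter length in both 48% libraries than in both 0% libraries for 79 of the 126 receptor genes covered in any of the 4 (62.7%). Among all protein-coding genes this held for 35.8%, and among those of similar length for 33.1%. A longer length in both 48% libraries was found for 11 receptor genes (8.73%), against 29.3% of all genes. By family the shorter count was 30 of 43 Gr, 28 of 42 Or and 21 of 41 Ir genes.

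Replicate 1 of 0% and both libraries of 48% lie in the same dated folder, have a long fragment length and hold 66369873, 71365625 and 67358505 tags. With these 3 alone, 82 of 117 receptor genes were covered over a shorter length at 48% (70.1%), against 40.6% of all genes. The rule is looser with a single 0% library. Leaving out replicate 1 of 0% instead gave 99 of 125 (79.2%), against 53.2% of all genes. Receptor spans were listed for 30.7% and 43.6% in the 48% libraries and 58.7% in replicate 1 of 0%. The lists of these 3 libraries still differed in length, with 41485 and 51422 entries at 48% and 60866 at 0%. With every list limited to its first 41485 entries, all 4 libraries included, the count was 50 of 102 receptor genes (49.0%), against 26.0% of all genes.

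**Figure D4:**
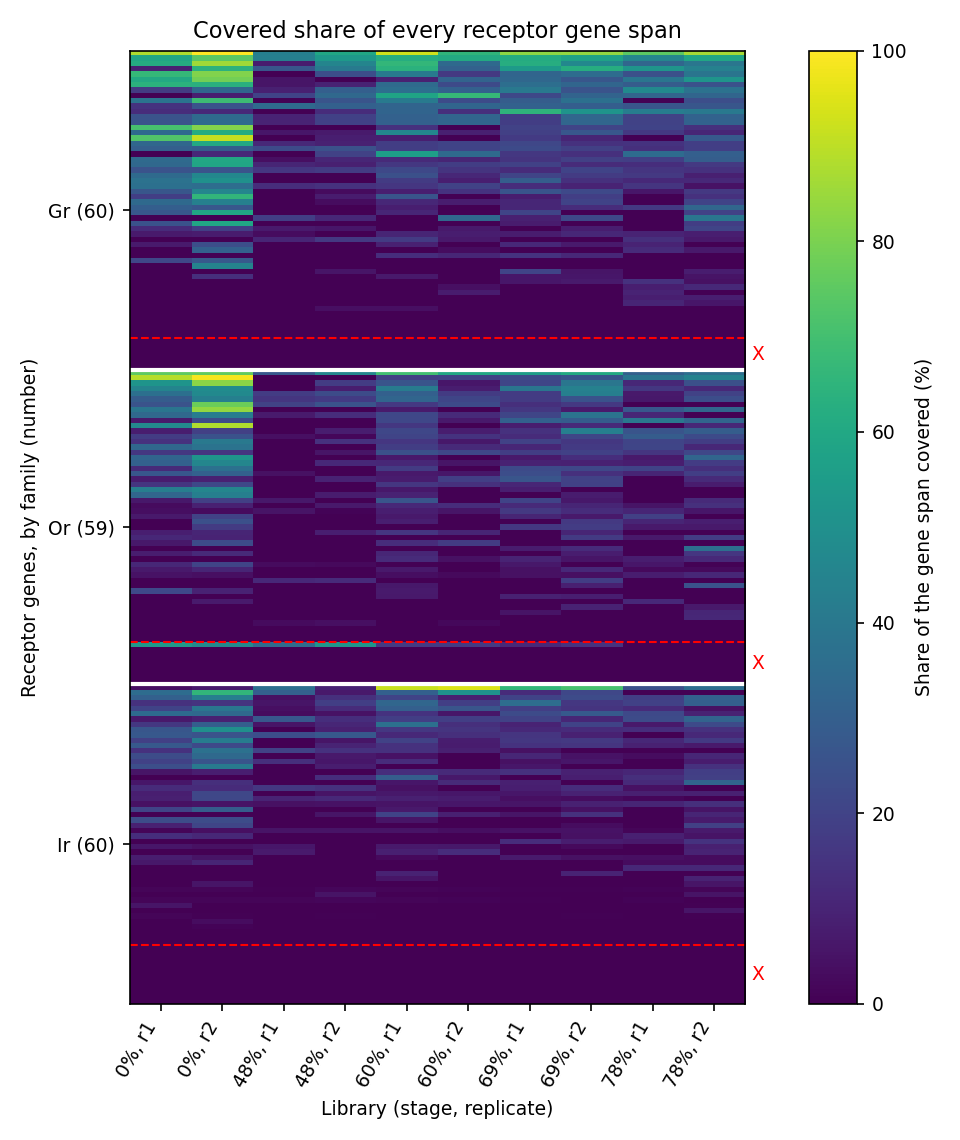
Share of the gene span covered by listed regions, from 0% to 100%, for every receptor gene (rows, by family, with X genes below the dashed lines) in each of the 10 libraries (columns). The X rows are at 0 except for Or1a, and the 2 columns of 48% are the darkest on the arms in each family, with 4.79% of the average Ir span covered there at 48%.

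Whole regions were compared in the same way. A region was called closed where both libraries of the earlier stage and neither of the later listed it, and opened in the reverse case. From the disc to 48%, 158 of 631 receptor regions closed (25.0%, against 19.8% of all regions) and 28 opened (4.44%, against 8.84%). By family 51 of 178 Gr regions (28.7%), 68 of 262 Or regions (26.0%) and 39 of 193 Ir regions (20.2%) closed, so the Ir share lay at the background of all regions. With 2 libraries a stage a single region cannot pass a test, since the smallest exact two-sided p is 0.333. Gr98a, a gustatory receptor gene on 3R, had 7 closed regions of 20, and Or83c, an odorant receptor gene for farnesol, had 7 of 18. Gr57a had 6 of 11 and Ir64a, an acid-sensing receptor gene, 5 of 24.

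The regions that closed at Or83c lay within the gene and on either side of it. At Or83c (3R from 6076804 to 6078283) an internal region (6076903 to 6077335) appeared in both 0% lists, neither 48% list, 1 of 2 at 60% and both at 69% and 78%. Regions at 6073964 to 6074409, 6078997 to 6079305 and 6079708 to 6079901 appeared in both 0% lists and nowhere else. Some disc regions of Or83c were thus listed again in the pupal wing and others were not. The gene table gives spans without exons, so exon, intron and UTR were not assigned.

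Ir67b had most openings from the disc to 48%, with 3 of 12 regions opened and 3 closed. Beside the gene (3L from 10429689 to 10431983), the regions at 10423091 to 10423688 and 10426787 to 10427474 appeared in neither 0% list and in all 8 pupal lists. Inside it, the region at 10430227 to 10430630 appeared in the 48% lists and no others. The openings at this gene therefore followed different courses. Ir68a, a receptor gene for moist air, had 2 of 5 opened, Or65a 2 of 12 and Or67c 2 of 15.

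Within the pupal wing the receptor regions opened and closed at shares near or below those of all regions. From 48% to 60%, 43 of 409 opened (10.5%, against 11.3% of all regions) and 7 closed (1.71%, against 4.07%). From 60% to 69%, 34 of 474 opened (7.17%, against 7.62%) and 11 closed (2.32%, against 2.66%), and from 69% to 78%, 15 of 572 opened (2.62%, against 3.17%) and 25 closed (4.37%, against 4.35%). Over the whole span from 48% to 78%, 71 of 544 opened (13.1%, against 16.5%) and 16 closed (2.94%, against 5.26%). The lowest against the background were the closed shares from 48% to 60% and from 48% to 78%.

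The balance within the pupal wing changed in part when the lists were cut to equal length, which also keeps the widest entries. With each list limited to 41485 entries, 20 of 284 receptor regions opened (7.04%) and 32 closed (11.3%) from 48% to 78%. From 60% to 69%, 16 of 255 opened (6.27%, against 5.18% of all regions) and 20 closed (7.84%, against 6.49%). From 48% to 60%, more still opened than closed, with 20 of 257 opened (7.78%, against 8.33%) and 13 closed (5.06%, against 7.16%). From 69% to 78%, 5 of 253 opened (1.98%, against 3.27%) and 11 closed (4.35%, against 5.44%). Over all regions the same limit gave 10.7% opened and 13.5% closed from 48% to 78%, so there too more closed than opened. In the lists called on pooled replicates, 1 per stage, 55.4% of receptor regions opened from 48% to 78%, against 47.4% of all regions. From the disc to 48% the same limit left 76 closed (23.1%, against 17.0% of all regions) and 37 opened (11.2%, against 17.2%).

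Ir67c, next to Ir67b, had most openings between 48% and 78%, with 5 of 13 regions. Its regions at 10435280 to 10435829 and 10436164 to 10436410 on 3L appeared in all lists of 69% and 78% and in none of the 6 earlier ones. Gr28b, a broadly expressed receptor gene with roles in heat and light avoidance, had 4 of 7 opened, among them an internal region on 2L (7459463 to 7459766) that all lists of 60%, 69% and 78% held and those of 0% and 48% lacked. Gr23a had 3 of 6 opened. Ir41a, the longest member with a span of 104437 bp, had 3 of 19 opened and 3 closed.

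Openings between neighbouring stages were few per gene. From 48% to 60%, Or30a had 3 of 7 and Or67c 3 of 10, with Gr28b at 2 of 6 and Gr64b at 2 of 4. From 60% to 69%, Ir67c had 4 of 13, Ir60b 2 of 3 and Or67d, the receptor gene for the male pheromone cis-vaccenyl acetate, 2 of 9. Ir60b then closed 2 of 4 from 69% to 78%. The 2 regions of Ir60b that opened at 69% were thus absent from the lists at 78%, while another, from 24513592 to 24516324 on 2R, was listed in all 10 libraries.

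The covered length of every gene was tested over the 5 stages with an exact permutation test, one-sided, of whether libraries of the same stage lie closer together than in the other of 945 pairings of the 10 libraries, adjusted by Benjamini-Hochberg over all 12700 genes listed in any library. Of these 1912 passed at 0.05 (15.1%). Of the 179 receptor genes 144 were listed within the span in some library and were tested, and 10 passed (6.94% of those tested, against 12.3% of tested genes of similar length). The 10 were Gr21a, Gr63a, Gr64f and Gr92a, Or1a, Or23a, Or42b and Or43a, and Ir21a and Ir64a. An unadjusted p under 0.05 was reached by 48 of the 144 (33.3%), against 42.9% of all genes tested.

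Or42b, a receptor gene for fruit esters, was covered over most of its 1318 bp in the disc. The length was 1171 and 1300 bp at 0%, 0 bp in both libraries at 48%, 248 and 258 bp at 60%, 300 and 342 bp at 69%, and 510 and 584 bp at 78%. No 2 stages overlapped, and the pupal values lay in stage order. Its exact permutation p was 0.00106, the smallest the pairings can give (adjusted p = 0.0286).

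Ir64a (3L from 5378786 to 5382821) had the same exact permutation p. It was covered over 1080 and 2008 bp at 0%, 0 and 351 bp at 48%, 653 and 606 bp at 60%, 471 and 489 bp at 69%, and 536 and 572 bp at 78%. The disc lay above all pupal libraries. It was also the member with the most regions, 29 within 10 kb.

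The carbon dioxide receptor is formed by the products of Gr21a and Gr63a, and both genes passed, with different courses. Gr21a was covered over 833 and 1439 bp at 0%, 101 and 255 bp at 48%, 287 and 253 bp at 60%, 362 and 451 bp at 69%, and 447 and 706 bp at 78% (exact permutation test, adjusted p = 0.0403). Gr63a was covered over 202 and 187 bp at 0%, 0 and 202 bp at 48%, 520 and 219 bp at 60%, 1042 and 828 bp at 69%, and 683 and 652 bp at 78% (exact permutation test, adjusted p = 0.0356). Gr21a was highest in the disc, whereas Gr63a was highest at 69%.

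Ir21a, a receptor gene for cooling, had the widest coverage of the 10 and peaked at 60%. Its span of 3333 bp near the end of 2L (21823 to 25155) was covered over 131 and 229 bp at 0%, 1213 and 317 bp at 48%, 3051 and 3138 bp at 60%, 2205 and 2359 bp at 69%, and 825 and 1196 bp at 78% (exact permutation test, adjusted p = 0.0440). At 60% nearly the whole gene was listed. The disc had the shortest coverage, the reverse of Or42b and Ir64a.

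**Figure D5:**
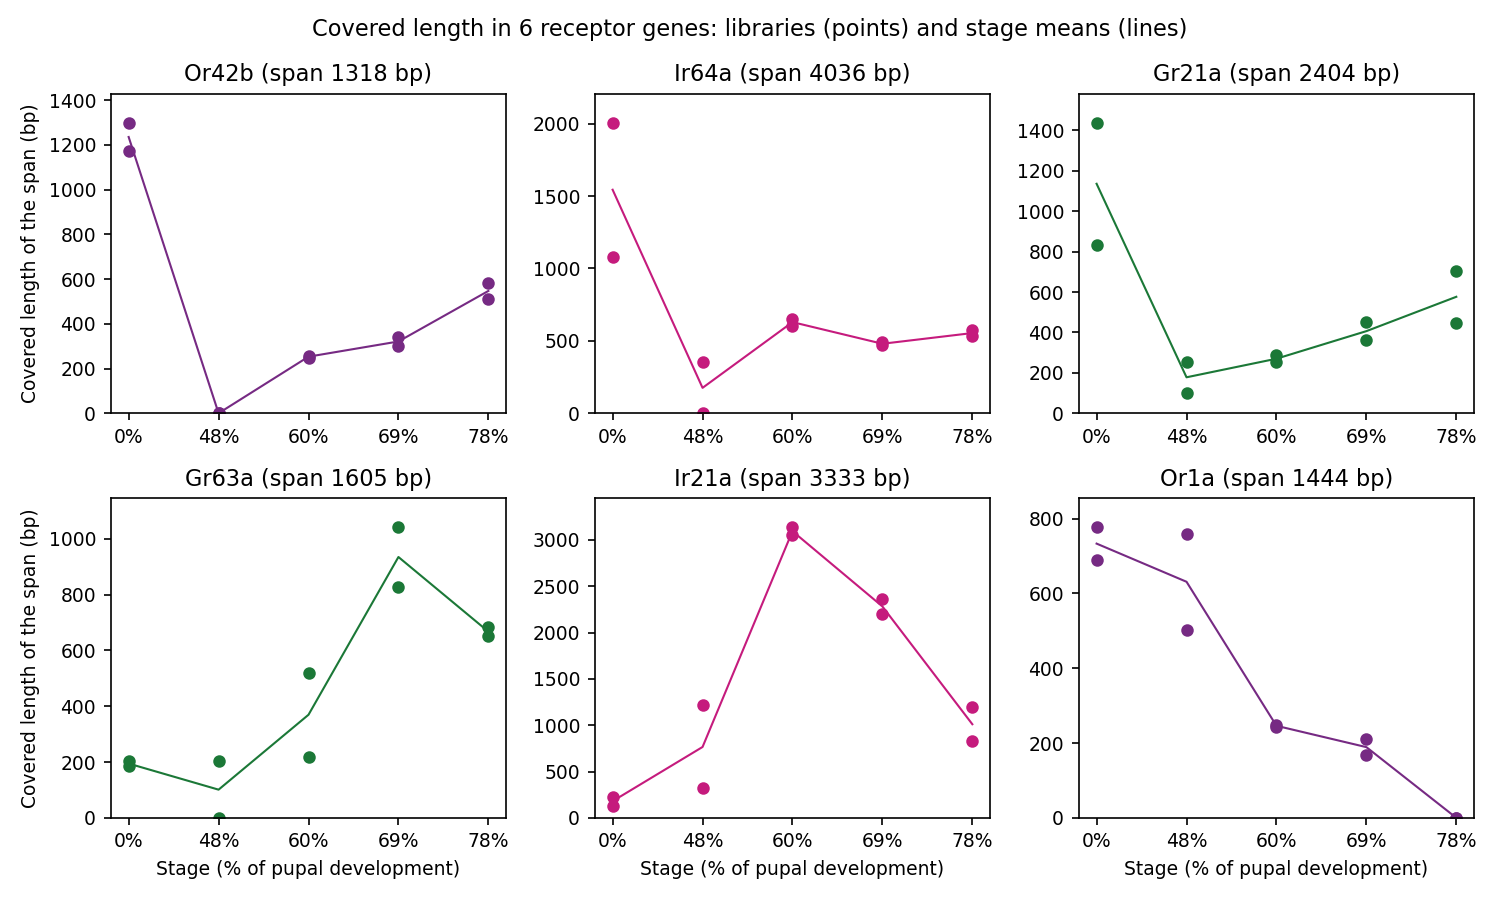
Covered length of the gene span in bp, by stage, for 6 of the receptor genes that passed the exact permutation test; points are libraries and lines join stage means. Or42b, Ir64a and Gr21a are highest at 0%, Gr63a at 69% and Ir21a at 60%, and Or1a is at 0 bp at 78%.

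The other 4 that passed were covered most in the disc or late. Gr64f, a co-receptor gene for sugar sensing, was covered over 1069 and 1400 bp at 0%, 101 and 0 bp at 48%, 160 and 566 bp at 60%, 592 and 476 bp at 69%, and 690 and 926 bp at 78%. Its coverage was thus longest in the disc and nearly absent at 48%. Gr92a had 457 and 611 bp at 0% and none at 48%, with 101 to 359 bp in the later libraries. Or23a had 547 and 1187 bp at 0%, none at 48% and 0 to 468 bp later, and its span overlaps the gene Prosbeta4R2. Or43a was covered little, with 231 bp at most, in replicate 2 of 78%. The adjusted p-values of the exact permutation test were 0.0403 for Gr64f and for Or1a, 0.0464 for Gr92a and for Or23a, and 0.0343 for Or43a.

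These calls rest on the full lists. On the first 20000 entries of each list 2 receptor genes passed, Gr47a and Ir60b, and none of the 10. With listed or not in place of covered length, 0 of 12700 genes passed. The same held with the replicate number as a block, where 120 pairings allow no p under 0.00833 in the exact permutation test. No run of this test separated fragment length from stage. With any 1 of the 5 stages left out no gene of the genome passed at an adjusted p of 0.05 (0 of 12274 to 12669), with 3269 to 4482 genes and 20 to 39 receptor genes at an unadjusted p under 0.05, and the 105 pairings that remain allow no p under 0.00952.

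Among the Ir co-receptors, Ir25a and Ir93a were listed within the span in all 10 libraries. Ir25a, the most broadly used of them, was covered over 193 and 241 bp at 0%, 204 and 213 bp at 48%, 227 and 267 bp at 60%, 260 and 410 bp at 69%, and 453 and 605 bp at 78%. The highest values were those of 78%, with an adjusted p of 0.0761 in the exact permutation test. Ir93a had 101 to 611 bp, with overlapping stages. Ir76b was listed in 4 libraries, with 282 and 633 bp at 0%, 101 bp in replicate 2 of 69% and 579 bp in replicate 2 of 78%. Ir8a was listed in none.

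The 13 other Irs of the antenna, none of them on X, were listed on average at close to the level of other genes, which here include X genes. All 13 were listed within the span in both 0% libraries, and over the 10 libraries their mean share was 85.4%, against 89.2% of genes of similar length. At 48% the share was 69.2 ± 21.8% (SD, n = 2 libraries), and the lowest library had 53.8%. Listing needs 1 bp, and Ir31a had at most 40 bp, with 0.433% of its span covered on average. For the 43 Irs in neither group, many of them taste or larval receptors, the mean share was 38.1%, against 80.4%. Of these 43, 10 lie on X and were listed in no library, and the 33 on the arms had a share of 49.7%. Ir84a, a receptor gene for food odours, was listed in all 10 libraries with 101 to 1072 bp, and so were Ir75b and Ir75c, receptor genes for acids. These roles were drawn up by hand and were not tested against each other.

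The sugar receptor genes were among the Gr genes listed more often. Of the 9, 5 were listed within the span in all 10 libraries (mean 74.4%, against 85.0% of genes of similar length), and Gr5a, on X, in none. Gr61a was covered over 572 and 578 bp at 0%, 357 and 387 bp at 48%, 487 and 342 bp at 60%, 280 and 450 bp at 69%, and 345 and 319 bp at 78%, a narrow range with overlapping stages. Gr64a to Gr64f lie side by side on 3L from 4026769 to 4037575, and Gr64b and Gr64c share 1 annotated span, so their 10 values are the same. The span of Gr64e (4032141 to 4035703) lies within that of Gr64d (4032062 to 4035703). The 5 sugar receptor genes listed in all 10 libraries, Gr61a and Gr64b to Gr64e, are thus not 5 separate stretches. Gr43a, a fructose receptor gene, was listed at the later stages alone, with 136 and 166 bp at 69% and 323 and 101 bp at 78%.

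The 5 genes active in most bitter neurons were listed within the span in 48.0% of gene and library pairs, against 80.6% of genes of similar length. At 0% their share was 20.0% and at 48% it was 60.0 ± 28.3% (SD, n = 2 libraries). Gr39a was listed in all 10 libraries, and Gr89a in 6, with 101 to 447 bp where listed. Gr66a was listed at 78% alone, with 168 and 101 bp, Gr33a in a library each of 48% and 60% with 101 bp, and Gr32a in 4 libraries with 101 to 371 bp. Gr28a showed the reverse, with 362 and 472 bp in the disc and none later. The narrowest listed region was 74 to 101 bp per library, so a value of 101 bp is at or near the smallest a library can give for a whole region.

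Other members were covered throughout. Gr58c had 558 to 1296 bp of its 1296 bp in all 10 libraries, the largest mean share of the Gr genes listed in all (77.7%), and Gr47a, inside the gene SLO2, 605 to 1044 bp. Or22a, a receptor gene for fruit esters, was covered over 1251 and 1263 bp at 0%, 460 and 763 bp at 48%, 1161 and 999 bp at 60%, 928 and 1010 bp at 69%, and 513 and 599 bp at 78%. Only 5 Or genes were listed within the span in all 10 libraries, namely Or22a, Or24a, Or45a, Or46a and Or47a. Among the genes outside X, 11 were listed within the span in no library, among them Or88a, a receptor gene for fly odours, Gr68a, a male taste receptor gene, and Or67c, which had 19 regions around it.

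Members in rows along a chromosome did not share 1 pattern. Of the 179, 82 lie in 28 rows with gaps of at most 10 kb. Gr64a to Gr64f were listed within the span in 88.3% of gene and library pairs, the row of Gr22a to Gr22e in 84.0%, Gr36a to Gr36c and Ir75a to Ir75c in 90.0% each, Or65a to Or65c in 46.7% and Gr93a to Gr93d in 22.5%. On X, Ir7b to Ir7g and the row of Gr10b, Gr10a and Or10a were at 0%. The rows thus ranged from nearly always listed to never listed. Regions between close neighbours can count for either gene, and genes in a row share the same libraries.

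The 30 members inside another gene were listed within the span in 51.7% of gene and library pairs and the other 149 in 54.9%, with the families on either side. For Ir genes it was 32.2% inside and 52.9% outside another gene, for Or genes 60.0% and 52.9%, and for Gr genes 60.0% and 58.8%. The other gene can itself be a receptor gene, as for Gr64b with Gr64c, Gr64e in Gr64d, and Gr10a with Or10a. Of these, Gr64b, Gr64c and Gr64e were listed in all 10 libraries and raise the Gr share inside. Of the remaining Gr genes inside another gene, Gr39a and Gr47a were listed in 10 libraries, Gr77a in 8, Gr94a in 2, and Gr68a and Gr9a in 0. Other chemosensory families had shares below those of similar-length genes too, with 52.5% against 58.5% for 51 odorant-binding protein genes (Obp), 62.8% against 84.4% for 29 ppk channel genes and 36.7% against 57.1% for 12 CheB genes. Orco was listed in 6 libraries, with 17.2% of its span covered on average at 0%, 0% at 48% and 60%, 7.16% at 69% and 7.18% at 78%. The genes lush and Snmp2, of a pheromone-binding protein and a membrane protein, were listed in all 10 libraries, and Snmp1, needed for pheromone sensing, in 9, with 1.02% of its span covered at 0% and 9.03% at 48%.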

How the data were processed

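ATAC-seq libraries of male D. melanogaster wings were aligned to dm6. The submitters' processing notes name Bowtie2, Picard, SAMtools, MACS2 and HOMER, without versions or order. Per the file headers, the deposited lists come from the HOMER peak finder in its histone style, without input, with a window of 100 bp, a Poisson threshold of 0.001, a local filter over 10 kb at 1e-04 and a genome size of 120 Mb. The deposited score is 1 throughout, so list order, which follows width, stood in for strength. No read counts came with the lists, so no interval for counting error is given, and the tag totals are those of the file headers. The headers place all replicate 1 libraries and both 48% libraries in 1 dated folder and the others in a second, so the folder and the replicate number mostly move together.

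The 10 single-library lists were merged, and a library listed a region if its entry shared at least 1 bp. Genes came from RefSeq (Release 6, spans only), and 93.2% of regions were assigned to a gene by overlap or within 10 kb. Shares of other genes were standardised to the receptor genes' lengths in bins of 0.25 on the log2 scale. Covered length is the bp of the span within a library's entries. The exact permutation test was tested on simulated data before use. P-values measure the spread between libraries, which are pools of wings. No sequences are shown. Genes were named by role, by number of libraries listing the span, by most opened or closed regions and by smallest exact p. The members and lists were chosen with earlier results of these data known. Alternatives covered overlap, list length, matching, chromosomes, lists called on pooled replicates, single replicates and scaling. Python 3.11.15, numpy 2.4.6 and pandas 2.3.3 were used.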

Additional observations from a re-analysis of the deposited data

How the results depend on the processing

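Each of the 8 differences between receptor genes and genes of similar length stayed below 0 under every alternative run. Limiting lists to their first entries, to 20000 or to equal length, keeps the widest entries. The first 25% of a list held 3.91% to 11.9% of receptor entries and 26.6% to 27.7% of those at other genes. Both limits thus lean towards a wider gap and are no separate support for it. The differences of shares at 0%, 48%, 60%, 69% and 78%, in percentage points, were -18.8, -35.0, -23.8, -21.5 and -23.8 for regions within the span alone, with -17.7 for Gr, -22.7 for Or and -33.3 for Ir genes over the stages. With the first 20000 entries they were -29.0, -37.4, -37.0, -37.2 and -33.5, with -31.3, -33.4 and -39.8 for the families. With equal list lengths, an alternative chosen after seeing the data, they were -19.9, -25.8, -24.4, -25.3 and -24.6. The families then had -17.7, -19.8 and -34.3. From 48% to 78% these differences lay closer together than those of the full lists, which were -22.8, -17.0, -13.0 and -15.2. With entries covering at least 50% of a region they were -9.94 at 0%, -22.3 at 60%, -22.1 at 69% and -21.0 for Gr genes. On the arms of 2 and 3 they were -7.08 at 0%, -10.6 at 60%, -6.24 at 69% and -8.78 at 78%, and -15.9 for Ir and -5.50 for Or genes, the Or value pooling 1.71 at 0% and 2.25 at 69% with negative values at the other stages. With 1 replicate left out they ranged from -13.3 to -12.2 at 0%, -27.3 to -18.3 at 48%, -20.6 to -13.4 at 60%, -15.4 to -10.5 at 69% and -18.4 to -12.0 at 78%. The families ranged from -11.9 to -11.7 (Gr), -11.3 to -8.70 (Or) and -28.8 to -24.3 (Ir). Taking all other genes without length matching, wider length bins or genes overlapping no other moved none of the 8 differences beyond 1 SD. Matching on the same kind of chromosome, chosen after seeing the data, moved none either.

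Region counts moved more. Here opened and closed counts follow each other for 48% against 0%, 60% against 48%, 69% against 60%, 78% against 69% and 78% against 48%. Within the span alone, 10 opened and 79 closed, then 25 and 2, 15 and 8, 13 and 13, and 42 and 13. The opened shares were 3.37%, 11.9%, 6.02%, 4.28% and 14.6%, against 8.84%, 11.3%, 7.62%, 3.17% and 16.5% of all regions. The closed shares were 26.6%, 0.952%, 3.21%, 4.28% and 4.51%, against 19.8%, 4.07%, 2.66%, 4.35% and 5.26%. At 50% of a region, 28 opened and 129 closed, then 47 and 15, 37 and 21, 17 and 39, and 57 and 34. The opened shares were 4.92%, 15.6%, 10.1%, 3.79% and 13.8%, against 12.0%, 14.1%, 9.87%, 3.85% and 16.9% of all regions. The closed shares were 22.7%, 4.98%, 5.72%, 8.69% and 8.25%, against 21.4%, 7.87%, 5.46%, 7.13% and 11.3%. With the first 20000 entries, 23 opened and 33 closed, then 11 and 14, 3 and 7, 6 and 7, and 14 and 26. The opened shares were 17.4%, 10.4%, 3.03%, 6.38% and 12.4%, against 19.7%, 7.94%, 6.42%, 3.82% and 11.7% of all regions. The closed shares were 25.0%, 13.2%, 7.07%, 7.45% and 23.0%, against 17.2%, 10.7%, 7.65%, 5.51% and 18.9%. With equal list lengths, 37 opened and 76 closed, then 20 and 13, 16 and 20, 5 and 11, and 20 and 32. The opened shares were 11.2%, 7.78%, 6.27%, 1.98% and 7.04%, against 17.2%, 8.33%, 5.18%, 3.27% and 10.7% of all regions. The closed shares were 23.1%, 5.06%, 7.84%, 4.35% and 11.3%, against 17.0%, 7.16%, 6.49%, 5.44% and 13.5%. In the lists called on pooled replicates, they were 52 and 375, 125 and 22, 136 and 28, 96 and 77, and 266 and 36. Their opened shares against those of all regions were 8.83% against 14.2%, 36.9% against 28.6%, 30.0% against 26.6%, 18.4% against 18.5% and 55.4% against 47.4%, and their closed shares 63.7% against 45.4%, 6.49% against 9.75%, 6.18% against 6.65%, 14.8% against 13.1% and 7.50% against 9.77%. With 1 replicate left out, when a single library decides and counts are larger by construction, they ranged from 40 to 70 and 243 to 342, 59 to 204 and 9 to 71, 65 to 156 and 29 to 85, 90 to 134 and 96 to 115, and 191 to 214 and 41 to 61. Without replicate 1 the opened shares were 11.8%, 19.2%, 39.7%, 26.9% and 46.2%, against 14.6%, 20.0%, 30.7%, 24.5% and 44.6% of all regions. Without replicate 2 they were 9.90%, 55.9%, 15.4%, 21.1% and 54.3%, against 20.6%, 38.2%, 19.3%, 16.4% and 42.3%. The closed shares without replicate 1 were 57.9%, 23.1%, 7.38%, 19.3% and 13.2%, against 45.0%, 15.5%, 7.40%, 14.7% and 11.6% of all regions. Without replicate 2 the closed shares were 60.1%, 2.47%, 20.2%, 27.0% and 11.6%, against 37.3%, 8.17%, 13.4%, 22.1% and 14.1%. Single libraries turned the balance at 60% against 48% (without replicate 1, 59 opened and 71 closed), at 69% against 60% (without replicate 2, 65 and 85) and at 78% against 69% (without replicate 1, 134 and 96).

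Genes covered over a shorter length at 48% than at 0% numbered 50 with equal list lengths and 27 with the first 20000 entries, and 92 to 101 with 1 replicate left out; those covered over a longer length numbered 17, 9 and 17 to 23. The shorter shares against those of all genes were 49.0% against 26.0%, 50.9% against 20.7%, and 81.5% against 62.0% and 82.9% against 45.2%, and the longer ones 16.7% against 41.0%, 17.0% against 38.4%, and 18.5% against 37.7% and 15.3% against 54.3%. These alternatives were chosen after seeing the data. In the exact permutation test over the stages, scaling to the covered length of each list gave 2481 genes and 13 receptor genes, 9 of them among the 10. The first 20000 entries gave 919 and 2. Listed or not gave 0 and 0, with 267 genes and 7 receptor genes at an unadjusted p under 0.05. Without the 0%, 48%, 60%, 69% or 78% stage, chosen after seeing the data, it gave 0 and 0 each time, where 105 pairings allow no p under 0.00952, so the loss does not single out a stage. Replicate numbers did not pair the libraries (correlation of deviations between stages -0.605 to 0.633, mean 0.0298), and the replicate block gave 0 and 0, with 120 pairings and 3600 genes at an unadjusted p under 0.05. The cause of these moves was not tested. No paired analysis was run for shares and region counts, which come from no test. Without read counts, listing is limited to present or absent, and covered length reflects the positions of entries and not signal height.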
